A study of Homo sapiens with 2 samples.

Results

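The 9 genes described here are the MAP kinases MAPK3, MAPK7, MAPK8, MAPK9, MAPK11, MAPK13 and MAPK14 and the phosphatases DUSP1 and DUSP10, taken by name from 41582 genes. They were measured by mRNA sequencing in U87 cells, an established human glioblastoma line labelled wild type, kept for 72 h with the curcumin analog CCA-1.1 or with its solvent DMSO. All cells grew in RPMI medium with serum, and the concentration of CCA-1.1 used for sequencing is not given in the sources used here. There was 1 library per condition, so no difference below has a replicate check, none was tested, and an effect of CCA-1.1 cannot be told apart from a difference between the 2 cultures.

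MAP kinases are the last tier of a relay in which a MAP3K phosphorylates a MAP2K, and the MAP2K then phosphorylates the MAP kinase on a threonine and a tyrosine of its activation loop. ERK-type kinases answer mainly to growth factors, whereas JNK and p38 kinases answer mainly to cell stress and cytokines. DUSP phosphatases remove both phosphates again, and DUSP1 is itself an early gene that stress and growth factors induce. The activity of these kinases is set by phosphorylation, which mRNA sequencing does not measure.

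The groups can be told apart by the codon between the threonine and tyrosine codons of the loop, which is why these stretches are shown. Each runs 5′ to 3′ from the DFG codons of the kinase, was read from the GENCODE v44 transcript tagged as canonical, and has the threonine, middle and tyrosine codons in capitals. The capitals are codons 202 to 204 of MAPK3, 219 to 221 of MAPK7, 183 to 185 of MAPK8 and MAPK9, and 180 to 182 of MAPK11, MAPK13 and MAPK14. The middle codon encodes glutamate in MAPK3 and MAPK7, proline in MAPK8 and MAPK9, and glycine in the p38 kinases.
MAPK3: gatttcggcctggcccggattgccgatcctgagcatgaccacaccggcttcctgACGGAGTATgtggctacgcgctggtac
MAPK7: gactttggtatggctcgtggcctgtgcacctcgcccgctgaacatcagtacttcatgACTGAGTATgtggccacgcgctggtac
MAPK8: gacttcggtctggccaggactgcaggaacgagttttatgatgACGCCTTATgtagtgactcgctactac
MAPK9: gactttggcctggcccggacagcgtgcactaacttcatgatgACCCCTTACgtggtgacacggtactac
MAPK11: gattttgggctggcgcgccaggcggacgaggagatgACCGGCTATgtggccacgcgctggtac
MAPK13: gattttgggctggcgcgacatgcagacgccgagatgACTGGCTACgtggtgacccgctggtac
MAPK14: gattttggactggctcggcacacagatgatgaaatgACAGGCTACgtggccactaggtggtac

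The phosphatases share a catalytic signature that starts with histidine and the catalytic cysteine and ends with arginine. It is shown in capitals, as codons 257 to 264 of DUSP1 and 407 to 414 of DUSP10, to show the site at which both act on the kinase loop.
DUSP1: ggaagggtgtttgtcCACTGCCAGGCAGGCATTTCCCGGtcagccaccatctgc
DUSP10: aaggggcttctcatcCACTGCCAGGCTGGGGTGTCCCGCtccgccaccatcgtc

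Values are TPM, a relative abundance scaled for transcript length and to the same total in each library, so levels of different genes can be compared but the read depth is lost. For each gene, the TPM values of its transcripts were added up, and differences are CCA-1.1 minus DMSO on the log2(TPM + 1) scale, which understates differences at low TPM. In bulk RNA, fewer cells that express a gene and less of its RNA per cell cannot be told apart. A difference past 2-fold was counted first and one past 1.5-fold second. The mesenchymal genes VIM (3217 TPM with DMSO, 3106 TPM with CCA-1.1) and FN1 (11241 and 9088 TPM) were abundant, while the astrocyte genes GFAP (0.41 and 0.57 TPM) and S100B (listed at 0 in both) were near or at 0. Of these U87 markers, TNC, a matrix protein gene, was past 1.5-fold (162.7 TPM with DMSO, 96.7 TPM with CCA-1.1, a difference of -0.74). The 7 markers of other cell types summed to 5.61 TPM with DMSO and 5.46 TPM with CCA-1.1, and the mean of 2 reached 1 TPM. These were the endothelial marker PECAM1 (3.41 and 2.71 TPM, a difference of -0.25) and the neuronal marker RBFOX3 (1.83 and 2.45 TPM, a difference of 0.29), while the T cell marker CD3E was listed at 0 and the other 4 were at or below 0.18 TPM.

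All 9 genes were detected in both libraries, and each had a mean of at least 1 TPM. None was past 2-fold in either direction, where 1.89% of the 15485 genes whose mean reached 1 TPM were past 2-fold higher and 1.67% past 2-fold lower in CCA-1.1. None was past 1.5-fold either, against 4.23% of genes higher and 2.82% lower. The member differences ran from -0.39 for MAPK11 to 0.39 for MAPK13, with a median of -0.04, and 3 genes were above and 6 below 0. Over the 15485 genes the median was 0.03 and the 5th and 95th percentiles were -0.40 and 0.53.

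**Figure D1:**
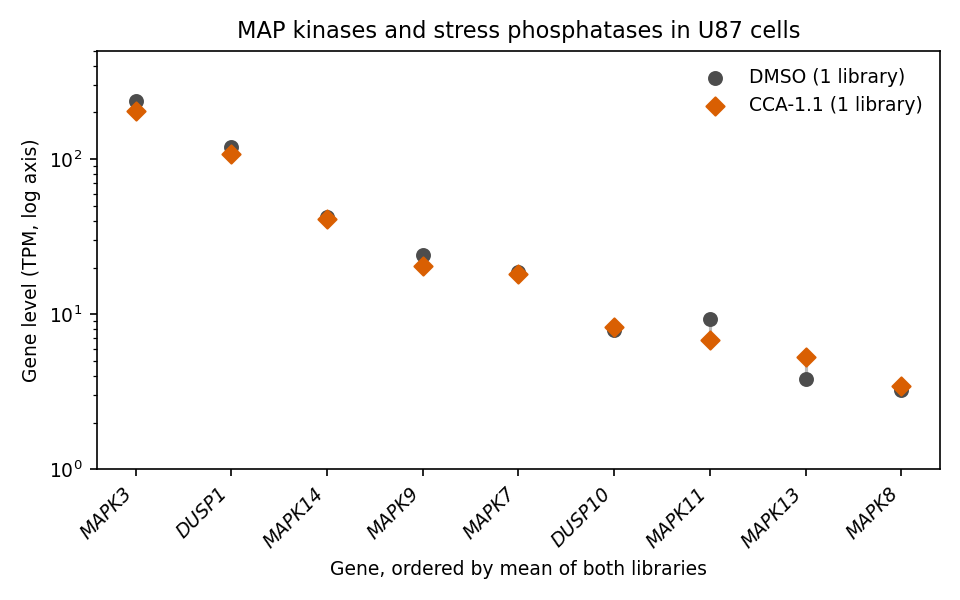
Level of each gene in TPM (log axis) in the DMSO library (circles) and the CCA-1.1 library (diamonds), 1 library each and therefore without error bars, ordered by the mean of both. MAPK3 and DUSP1 lay above 100 TPM in both libraries and MAPK8 and MAPK13 below 6 TPM. MAPK11 and DUSP10, with nearly the same mean, are in opposite order in the libraries.

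The levels of the 9 genes spanned a wider range than any difference between the libraries. MAPK3 was the highest in both libraries and MAPK8 the lowest. From DMSO to CCA-1.1, MAPK11 went from place 6 to place 7 and DUSP10 from place 7 to place 6, and the other 7 genes had the same place in both. With 1 library per condition, it was not tested whether neighbours in this order differ.

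MAPK3 encodes ERK1, the classical kinase of the growth factor and RAS pathway, and lies on chromosome 16 (GRCh38.p14, 30114105 to 30123220). It was at 235.9 TPM with DMSO and 205.5 TPM with CCA-1.1, a difference of -0.20. Of the 1556 genes whose mean reached 100 TPM, 25.7% differed by at least as much in either direction.

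MAPK7 encodes ERK5, a larger kinase with a long C-terminal tail that MAP2K5 activates, and lies on chromosome 17 (19377750 to 19383544). It was at 18.64 TPM with DMSO and 18.29 TPM with CCA-1.1, a difference of -0.03. MAPK3 was 12.7 times as high as MAPK7 in DMSO and 11.2 times as high in CCA-1.1. Summed over curated transcripts alone, those with NM_ and NR_ identifiers, MAPK7 was at 12.36 and 14.45 TPM, a difference of 0.21, so its direction depended on which transcripts were counted. The ends of MAPK7 overlap B9D1 by 164 bases and MFAP4 by 100 bases, and MFAP4 was at 33.7 TPM with DMSO and 24.8 TPM with CCA-1.1.

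The JNK genes MAPK8 (JNK1, chromosome 10, 48306677 to 48439360) and MAPK9 (JNK2, chromosome 5, 180233143 to 180292083) encode kinases that phosphorylate JUN and other transcription factors under stress. MAPK8 was at 3.23 TPM with DMSO and 3.44 TPM with CCA-1.1, a difference of 0.07. MAPK9 was at 24.1 TPM with DMSO and 20.4 TPM with CCA-1.1, a difference of -0.23. MAPK9 was thus the main JNK transcript source in both libraries, at 7.46 times the level of MAPK8 in DMSO and 5.94 times in CCA-1.1. With MAPK10, the neuronal JNK3 gene (1.75 TPM with DMSO, 1.6 TPM with CCA-1.1), MAPK9 held 82.9% of the summed JNK level in DMSO and 80.2% in CCA-1.1. The span of MAPK8 from gene start to gene end overlaps that of ARHGAP22 by 9530 bases, which is not a length of shared transcript sequence. ARHGAP22 was at 12.4 TPM with DMSO and 16.5 TPM with CCA-1.1.

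The p38 genes lie in adjacent pairs in the genome. MAPK14 (p38 alpha, chromosome 6, 36027808 to 36124214) and MAPK13 (p38 delta, chromosome 6, 36130513 to 36144521) are 6298 bases apart, and MAPK11 (p38 beta, chromosome 22, 50263713 to 50270380) lies 2029 bases from MAPK12 (p38 gamma). MAPK14, the widely expressed member through which inflammatory stimuli stabilise cytokine mRNA, was at 42.09 TPM with DMSO and 41.01 TPM with CCA-1.1, a difference of -0.04. MAPK13 was at 3.81 TPM with DMSO and 5.32 TPM with CCA-1.1, a difference of 0.39. Its neighbour MAPK14 therefore had almost the same level in both libraries while MAPK13 was higher with CCA-1.1. Summed over curated transcripts alone, MAPK14 was at 31.87 TPM with DMSO and 27.52 TPM with CCA-1.1, a difference of -0.20. Its near equality thus depended on which transcripts were counted.

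MAPK11 was at 9.28 TPM with DMSO and 6.82 TPM with CCA-1.1, a difference of -0.39. Its neighbour MAPK12 was at 22.84 and 22.63 TPM, a difference of -0.01. MAPK11 and MAPK13 had the largest differences of the 9 genes, in opposite directions, and their ratio was 2.44 with DMSO and 1.28 with CCA-1.1. Both are low, and of the 6896 genes with a mean from 1 to below 10 TPM, 21.2% differed by at least as much as MAPK11 and 21.2% by at least as much as MAPK13.

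Summed over MAPK11, MAPK12, MAPK13 and MAPK14, p38 was at 78.0 TPM with DMSO and 75.8 TPM with CCA-1.1, a difference of -0.04. MAPK14 held 53.9% of this sum in DMSO and 54.1% in CCA-1.1. The share of MAPK11 was 11.9% with DMSO and 9.0% with CCA-1.1, and that of MAPK13 was 4.88% and 7.02%.

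DUSP1 (MKP-1, chromosome 5, 172768096 to 172771195) is a nuclear phosphatase of p38, JNK and ERK, and DUSP10 (MKP-5, chromosome 1, 221701424 to 221742089) acts mainly on p38 and JNK. DUSP1 was at 120.5 TPM with DMSO and 108.4 TPM with CCA-1.1, a difference of -0.15. DUSP10 was at 7.91 TPM with DMSO and 8.24 TPM with CCA-1.1, a difference of 0.05. DUSP1 was 15.2 times as high as DUSP10 in DMSO and 13.2 times as high in CCA-1.1. DUSP1 also exceeded every stress kinase of the set in both libraries, and MAPK3 alone was higher.

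**Figure D2:**
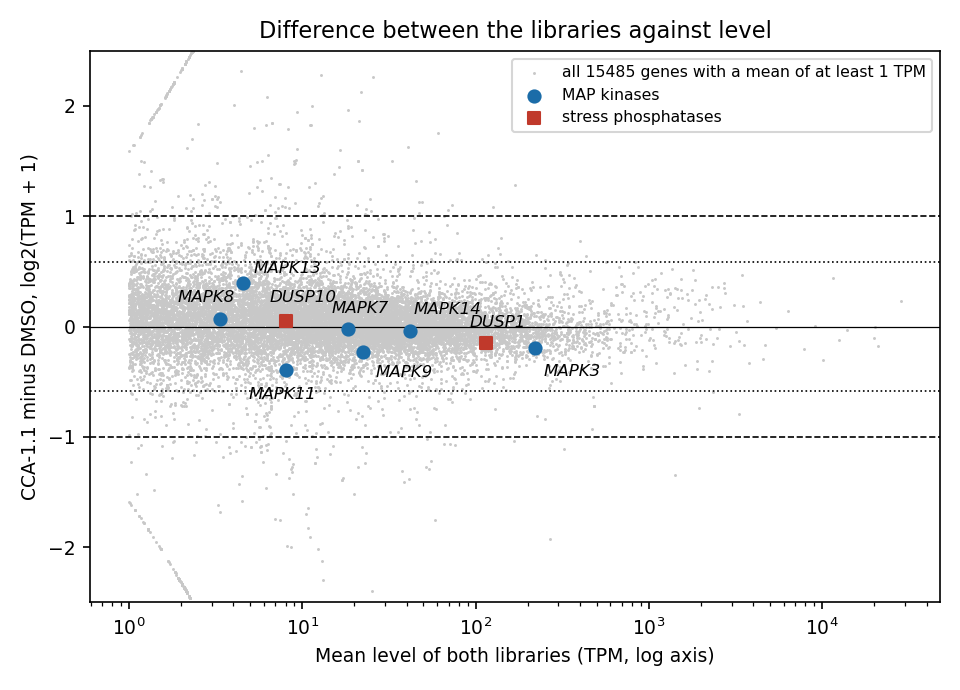
CCA-1.1 minus DMSO on the log2(TPM + 1) scale against the mean level of both libraries (TPM, log axis) for 15485 genes (grey), the 7 MAP kinases (blue circles) and the 2 phosphatases (red squares). Dotted lines mark 1.5-fold and dashed lines 2-fold, 128 genes lie outside the plotted range of 2.5 in either direction, and all 9 genes lie between the dotted lines.

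Below the gene level, the table lists 90 transcripts of the 9 genes, of which 24 were at 0 in both libraries and 26 reached 1 TPM in at least 1 library. Of the 66 transcripts above 0 in a library, 1 was past 2-fold higher and 1 past 2-fold lower in CCA-1.1. Each is 1.52% of the 66, where 2.12% of all transcripts above 0 in a library were past 2-fold higher and 1.93% past 2-fold lower. The transcript past 2-fold higher was NM_139013.3 of MAPK14, at 0.47 TPM with DMSO and 2.03 TPM with CCA-1.1, a difference of 1.04. The transcript past 2-fold lower was XM_006721558.4 of MAPK7, at 2.56 TPM with DMSO and 0.68 TPM with CCA-1.1, a difference of -1.08. Another 12 transcripts were above 0 in the DMSO library alone and 10 in the CCA-1.1 library alone, none of them above 0.99 TPM. The share of all transcripts above 0 in only 1 library was not counted. These 2 numbers therefore cannot be read as a trait of the 9 genes. The counts past 2-fold are on the log2(TPM + 1) scale. In TPM without the added 1, more transcripts were past 2-fold in both directions. Among them were XM_006714998.4 (4.43 TPM with DMSO, 9.35 TPM with CCA-1.1) and XM_047418237.1 (3.41 and 1.34 TPM), both of MAPK14.

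**Figure D3:**
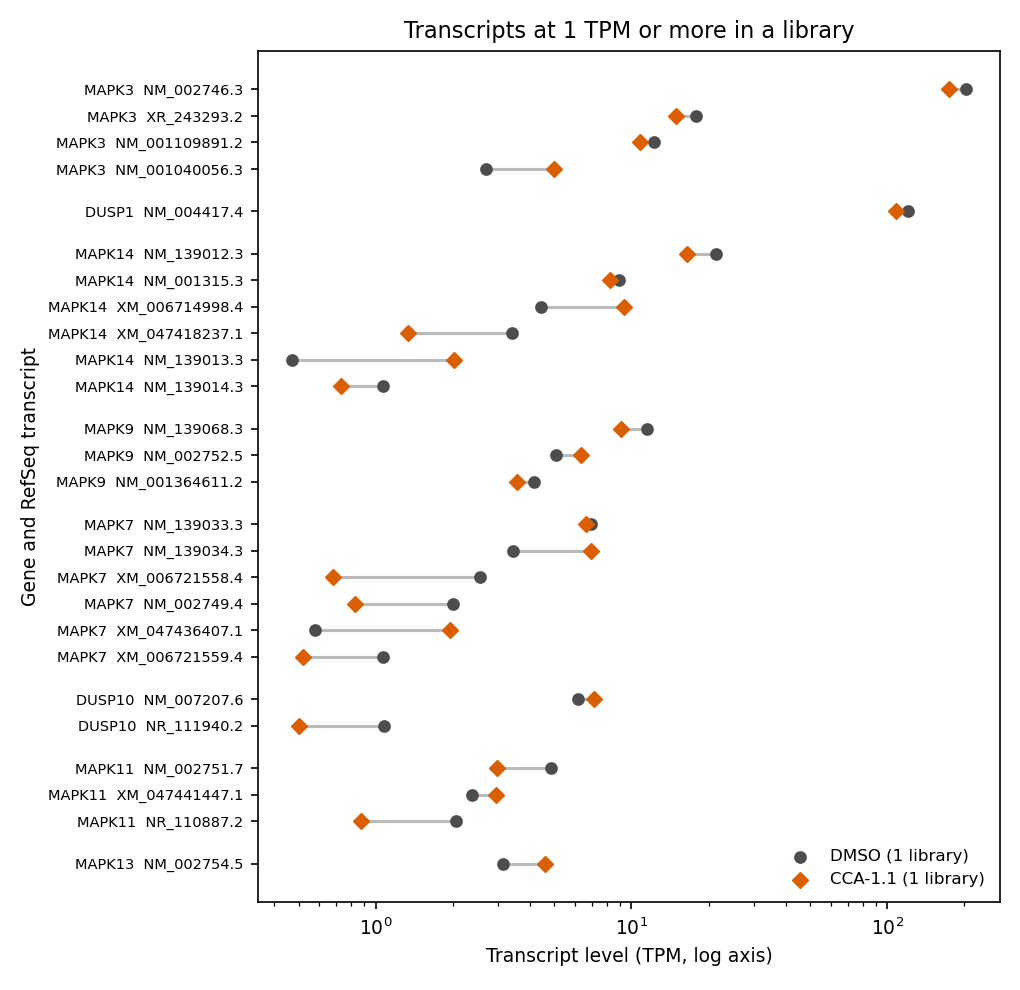
Level in TPM (log axis) of the 26 transcripts that reached 1 TPM in 1 or both libraries, grouped by gene, in the DMSO library (circles) and the CCA-1.1 library (diamonds). Transcripts of MAPK3, MAPK7, MAPK9, MAPK11, MAPK14 and DUSP10 differed in both directions within the gene. The main transcripts of MAPK3 and DUSP1 differed little, and MAPK8 has no transcript in the plot.

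In MAPK7, the leading transcript was not the same in both libraries. NM_139034.3 was at 3.43 TPM with DMSO and 6.96 TPM with CCA-1.1, which is 18.4% and 38.1% of the gene. NM_139033.3 was at 6.93 and 6.66 TPM, 37.2% and 36.4% of the gene. Below these, NM_002749.4 was at 2.0 TPM with DMSO and 0.83 TPM with CCA-1.1, XM_047436407.1 at 0.58 and 1.95 TPM, and XM_006721559.4 at 1.07 and 0.52 TPM. Taken over its 12 transcripts above 0, 30.6% of the MAPK7 level was assigned to other transcripts in CCA-1.1 than in DMSO, while the gene sum differed by -0.03. A shift at least as large was present in 3.13% of genes of 10 to below 100 TPM with at least 2 transcripts above 0, whose median was 7.06%. Shifts are larger in genes with many transcripts, and among the 1252 genes of that level with at least 10 transcripts above 0 the median was 16.2% and 11.0% of genes had a shift at least as large as MAPK7.

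In MAPK14, NM_139012.3 was the main transcript in both libraries, at 21.37 TPM with DMSO and 16.50 TPM with CCA-1.1, 50.8% and 40.2% of the gene. XM_006714998.4 was at 4.43 TPM with DMSO and 9.35 TPM with CCA-1.1, a difference of 0.93, and XM_047418237.1 was at 3.41 and 1.34 TPM, a difference of -0.91. NM_001315.3 was nearly level, at 8.96 and 8.26 TPM, and NM_139014.3 was at 1.07 and 0.73 TPM. The shift of MAPK14 was 18.2%, and 41.5% of the 1252 genes with many transcripts had one at least as large.

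The JNK genes differed in how their level was divided. In MAPK9, NM_139068.3 was at 11.49 TPM with DMSO and 9.06 TPM with CCA-1.1, NM_002752.5 at 5.08 and 6.34 TPM, and NM_001364611.2 at 4.16 and 3.56 TPM. The share of NM_002752.5 was 21.1% with DMSO and 31.03% with CCA-1.1. The shift of MAPK9 was 10.5%. Of the genes of 10 to below 100 TPM with at least 2 transcripts above 0, 34.1% had one at least as large. In MAPK8, 20 transcripts above 0 divided about 3 TPM, and none reached 1 TPM in either library.

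In MAPK11, the gene difference was carried by NM_002751.7 (4.84 TPM with DMSO, 2.98 TPM with CCA-1.1) and the non-coding transcript NR_110887.2 (2.06 and 0.88 TPM), while XM_047441447.1 was higher with CCA-1.1 (2.38 and 2.96 TPM). Summed over curated transcripts alone, MAPK11 was at 6.90 TPM with DMSO and 3.86 TPM with CCA-1.1, a difference of -0.70 and past 1.5-fold. It was the only one of the 9 genes past 1.5-fold in these sums, where 3.3% of the 13452 genes whose curated mean reached 1 TPM were past 1.5-fold lower and 3.56% higher. Summed over the protein-coding identifiers NM_ and XM_, a choice made after the values were seen, the difference was -0.24. The size of the MAPK11 difference therefore depended on which transcripts were summed, and its direction did not in these sums.

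In MAPK13, NM_002754.5 was at 3.16 TPM with DMSO and 4.59 TPM with CCA-1.1 and held 82.9% and 86.3% of the gene. In MAPK3, NM_002746.3 was at 203.1 and 174.8 TPM and held 86.1% and 85.1%. The other MAPK3 transcripts were XR_243293.2 at 17.93 and 14.91 TPM, NM_001109891.2 at 12.21 and 10.80 TPM, and NM_001040056.3, the only one higher with CCA-1.1, at 2.69 and 4.97 TPM. In DUSP10, NM_007207.6 was at 6.19 and 7.14 TPM and the non-coding NR_111940.2 at 1.08 and 0.50 TPM. DUSP1 has a single listed transcript, NM_004417.4, so its value involves no division among transcripts.

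Kallisto assigns reads by matching stretches of sequence, 31 bases long by default, and divides reads that match several transcripts by estimation. The deposited values are for RefSeq transcripts, but shared stretches were counted in GENCODE v44 transcripts, so the counts need not hold for the set that Kallisto used. In GENCODE v44 transcripts, MAPK11, MAPK14, DUSP1 and DUSP10 shared no stretch of 31 bases with a transcript of another gene. For the other genes, 1.43% of such stretches in MAPK8, 2.46% in MAPK9, 3.63% in MAPK3, 5.16% in MAPK7 and 5.67% in MAPK13 also occurred in other genes. Between the 9 genes, MAPK3 and MAPK9 shared 8 stretches and MAPK8 and MAPK9 shared 4. The stretches of MAPK7 were shared with its overlapping genes B9D1 and MFAP4. Transcripts of 1 gene share most of their sequence, and the part of this division in the transcript differences was not tested.

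The other genes of the relay were described in the same way, through 7 lists with 74 genes, of which 65 had a mean of at least 1 TPM. None of the 65 was past 2-fold or 1.5-fold, beside the shares of all genes given above. Their median difference was -0.01, with 31 genes above and 34 below 0. The shares of all genes include many low genes, whose differences spread more widely. The 5th and 95th percentiles were -0.55 and 0.73 for genes of 1 to below 10 TPM. For genes of 10 to below 100 TPM they were -0.30 and 0.36, and for genes of at least 100 TPM -0.31 and 0.36.

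Of the MAP2K genes, 6 of 7 had a mean of at least 1 TPM, with a median of -0.09. The ERK activators MAP2K1 (126.3 TPM with DMSO, 112.5 TPM with CCA-1.1) and MAP2K2 (395.2 and 379.8 TPM) were the highest. MAP2K5, the activator of ERK5, was at 30.9 and 33.3 TPM. The p38 activator MAP2K3 was at 44.2 and 37.9 TPM, whereas MAP2K6, also a p38 activator, was at 0.33 and 0.44 TPM. The JNK activators MAP2K4 and MAP2K7 were at 15.5 and 14.2 TPM and at 39.8 and 41.5 TPM. A MAP2K above 10 TPM was thus present in both libraries for each of the ERK, ERK5, JNK and p38 groups.

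Among 20 MAP3K genes, 19 had a mean of at least 1 TPM, with a median of -0.03 and a range from -0.25 for MAP3K11 to 0.24 for MAP3K21. Of the other MAPK family genes, MAPK6, an atypical kinase, was the highest at 112.7 and 118.4 TPM, and the 4 genes at or above a mean of 1 TPM had a median of 0.03. In the list of other DUSP phosphatases of MAP kinases, 6 of 8 genes had a mean of at least 1 TPM, 5 of them above and 1 below 0, with a median of 0.06. DUSP4 was the highest of them at 72.4 and 75.4 TPM, and DUSP16, a JNK and p38 phosphatase, had the largest difference at 0.32 (12.4 and 15.7 TPM).

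Of the kinases that MAP kinases activate, 10 of 11 had a mean of at least 1 TPM, with a median of -0.01. MAPKAPK2, the p38 target that relays to mRNA stability, was the highest at 317.7 TPM with DMSO and 281.1 TPM with CCA-1.1, and MAPKAPK5 had the largest difference at 0.40 (10.4 and 14.1 TPM). The 8 scaffold genes at that level had a median of 0.03, with SPAG9 the highest at 97.3 and 98.6 TPM. The 12 transcription factors that MAP kinases phosphorylate had a median of -0.04, with JUND the highest at 685.4 and 677.8 TPM. DDIT3, a stress factor and p38 substrate, had the largest difference of the 65 genes at 0.56 (273.2 TPM with DMSO, 403.7 TPM with CCA-1.1), just inside 1.5-fold, which is 0.58 on this scale. It lay above 0.36, the 95th percentile of genes of at least 100 TPM, and was picked as the largest of the 65.

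**Figure D4:**
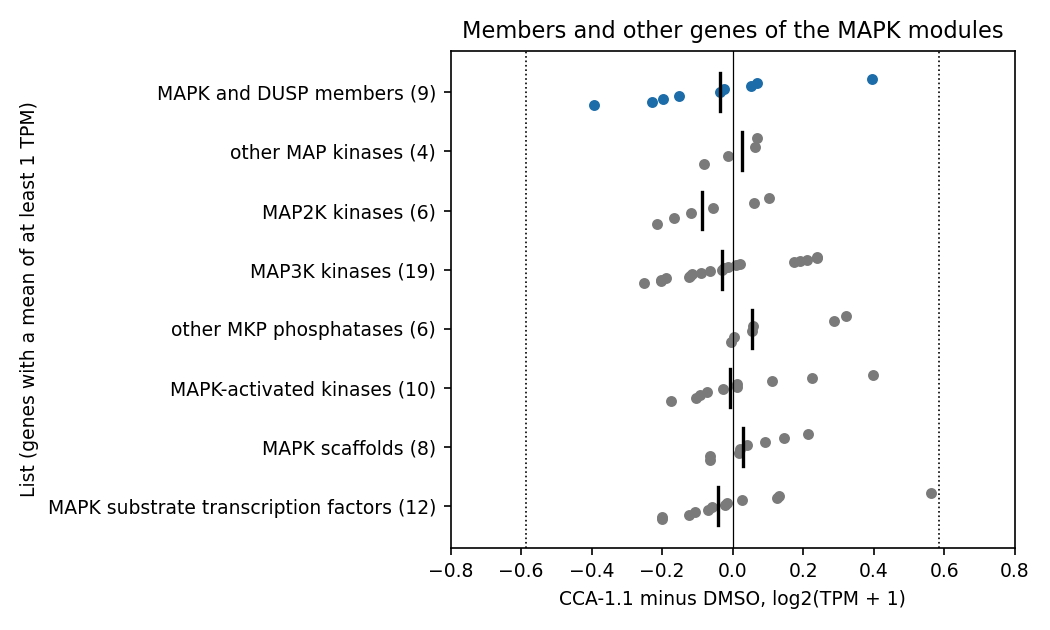
CCA-1.1 minus DMSO on the log2(TPM + 1) scale for the 9 genes (blue) and for the genes of the 7 other lists (grey), with a mean of at least 1 TPM, numbers of genes in brackets and list medians as black bars. Dotted lines mark 1.5-fold, and every point lies between them, with DDIT3 at 0.56 nearest to the line.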

How the data were processed

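RNA of U87 cells was sequenced by the authors with 1 library per condition. They checked reads with FastQC 0.11.9 and MultiQC 1.1 and used Kallisto, a pseudo-aligner, to quantify the transcripts of the human build GRCh38.p14. The deposited values are TPM, rounded to 2 decimals. TPM keeps no read depth, and counting error is therefore unknown here.

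Of 177816 transcripts, 169966 were matched to RefSeq gene symbols with versions ignored. TPM was summed per gene, 1 TPM was added, and the log2 value of DMSO was subtracted from that of CCA-1.1. No test was possible. Genes past 2-fold or 1.5-fold were counted, beside all genes whose mean reached 1 TPM. Transcripts past 2-fold were counted beside all transcripts above 0 in a library. The share shift of a gene is the part of its TPM, in percent, assigned to other transcripts in 1 library than in the other. The text names all 9 genes, their transcripts at 1 TPM or more or past 2-fold, all MAP2K genes, and from each other list the genes past 1.5-fold and the highest gene. Genes named for the largest or smallest difference of a list, other marker and p38 or JNK genes, and overlapping genes were added after their values were seen. The genes and lists were chosen with earlier results of these data known. Some pathway items are not reported here.

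Gene coordinates are those of RefSeq on GRCh38.p14. Coding stretches came from GENCODE v44 transcripts (GRCh37 release), and none of their coordinates is used. Alternatives were pseudocounts of 0.1 and 0.01 TPM, median ratio scaling, curated transcripts only, versioned matches only and minimum means of 1 or 10 TPM. The gene sums and fold counts were tried on values made from the DMSO library with known folds. These had no added noise and covered genes of at least 10 TPM, so the trial checks the arithmetic alone. Python 3.11.15, numpy 2.4.6, pandas 2.3.3 and matplotlib 3.10.9 were used.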

Additional observations from a re-analysis of the deposited data

How the results depend on the processing

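No paired analysis was possible because each condition had a single library, and for the same reason none could be left out. A change of at least 0.1 on the log2 scale, 5 percentage points of a share or 1.5 times a count was taken as a move. The number of genes past 2-fold was 0 in both directions under every alternative, and the number past 1.5-fold higher was 0. The number past 1.5-fold lower was 1, MAPK11, with curated transcripts only (3.3% of all genes in these sums), where the median of the 9 genes was -0.15 (counts and medians over other transcript sets were added after seeing the data). With curated transcripts only, MAPK7 was at 0.21 and MAPK14 at -0.20. With NM_ and XM_ transcripts only, DUSP10 was at 0.16. MAPK3, MAPK8, MAPK9, MAPK13 and DUSP1 moved by less than 0.1 under each alternative, and MAPK7 with curated transcripts was the only sign change. The medians of the 7 lists moved by less than 0.1 with a minimum mean of 10 TPM.

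With pseudocounts of 0.1 and 0.01 TPM, 5 and 17 of the 66 transcripts were past 2-fold higher (all transcripts: 14.8% and 22.6%) and 12 and 20 lower (13.5% and 20.9%). Smaller pseudocounts let values near 0 pass, and also some transcripts of a few TPM. With curated transcripts only, shares in DMSO and CCA-1.1 were 93.2% and 91.7% for NM_002746.3 of MAPK3, 56.1% and 46.1% for NM_139033.3 of MAPK7, 70.1% and 77.2% for NM_002751.7 of MAPK11, 67.1% and 59.96% for NM_139012.3 of MAPK14, and 85.1% and 93.5% for NM_007207.6 of DUSP10. MAPK14 then held 48.7% and 46.4% of p38, since fewer transcripts were summed. Missing depth and replicates limit every value, most of all those near 0.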
